A study of Mus musculus with 15 samples.

Results

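The 10 genes described here, Lyz2, Apoe, Arg1, C1qa, C1qb, C1qc, Adgre1, Csf1r, Cd14 and Tyrobp, are known as genes of macrophages and were followed through all 15 libraries of CD8+ T cells from E.G7 tumours. They were picked by name with earlier results of these libraries in view, in which Lyz2 and Arg1 had read higher in 1 sorted population, so the differences of that population from the others are given below as a description and with no test. The bulk pair listed 17205 unique symbols and all 10 genes. The wild-type sorted libraries numbered 1 listed 15627 symbols and 7 of the genes, without C1qa, C1qb and C1qc. The wild-type sorted libraries numbered 2 and the sorted libraries labelled KO listed 17605 symbols and all 10 genes. The antibody libraries listed 14710 symbols and 6 of the genes, without C1qa, C1qc, Adgre1 and Tyrobp. A gene missing from a table has no value there and is called not listed.

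E.G7 is a mouse T cell lymphoma line that makes ovalbumin (OVA). E.G7 cells were placed under the skin of female mice of 6 to 8 weeks, and CD8+ tumour-infiltrating T cells were taken by cell sorter on day 21, when the mice were 9 to 11 weeks old. B7S1, encoded by Vtcn1, is a ligand of the B7 family that restrains T cells. The sorted design had 3 populations of PD-1+ CD8+ cells. B7S1R_SP cells lacked Tim-3 and carried the B7S1 receptor, TIM-3_SP cells carried Tim-3 without that receptor, and DN cells carried neither. Each population had 1 library labelled KO, from mice labelled as B7S1 knockouts, and 2 wild-type libraries with a number in the title. The bulk design had OVA-specific CD8+ cells from mice labelled KO and from wild-type mice, with 1 library and 6 mice per group. The antibody design had 1 library each for anti_B7S1, anti_PD1, combo and Control, named so by their titles. The labels give neither dose nor schedule for the antibodies, and they do not say how the knockout was made. The labels' genotype and strain fields count upward from sample to sample in places, so groups follow the titles. The labels do not say whether libraries of a group came from separate mice, so a p-value here measures only the spread between these libraries.

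Macrophages take up and digest particles and dying cells, and they sense microbes and shape lipid and amino acid use around them. The genes fall into those for released or metabolic proteins and those for surface receptors with their signalling partner. Lyz2 encodes the lysozyme of myeloid cells, which cuts bacterial cell walls. C1qa, C1qb and C1qc encode the 3 chains of C1q, which starts the classical complement pathway. Apoe encodes a lipid carrier, and Arg1 encodes arginase, which breaks down arginine. Csf1r encodes the receptor through which macrophages receive their survival signal, Adgre1 the surface antigen F4/80, Cd14 a coreceptor for bacterial lipopolysaccharide, and Tyrobp the adaptor DAP12 of activating receptors, which natural killer cells also use.

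The sequences before the start sites of the lysozyme genes and of 2 C1q chains are shown because Lyz2 held the highest value of the 10 genes and because C1qb and C1qc were 63.9 and 61.7 times as high in the B7S1R_SP library labelled KO as in the B7S1R_SP wild-type library numbered 2. They come from the 250 bases upstream of each annotated start in RefSeq on build GRCm38.p6, all on the minus strand and written 5′ to 3′ as the gene reads. GENCODE puts the starts of Lyz2 and C1qc further upstream, so the last 49 bases of the Lyz2 window and the last 151 of the C1qc window lie inside those gene models and are not shown. Capitals mark ACTTCCT, which is AGGAAGT on the other strand, a form of the site bound by ETS family factors such as PU.1, a regulator of macrophage genes encoded by Spi1. The sequences lie at chr10:117282322-117282522 for Lyz2, chr10:117292869-117293118 for its neighbouring copy Lyz1, chr4:136886201-136886450 for C1qb and chr4:136893066-136893164 for C1qc.
Lyz2: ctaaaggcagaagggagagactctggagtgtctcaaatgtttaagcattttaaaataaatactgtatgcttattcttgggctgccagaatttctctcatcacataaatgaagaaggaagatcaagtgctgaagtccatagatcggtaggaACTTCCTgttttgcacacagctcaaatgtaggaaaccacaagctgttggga
Lyz1: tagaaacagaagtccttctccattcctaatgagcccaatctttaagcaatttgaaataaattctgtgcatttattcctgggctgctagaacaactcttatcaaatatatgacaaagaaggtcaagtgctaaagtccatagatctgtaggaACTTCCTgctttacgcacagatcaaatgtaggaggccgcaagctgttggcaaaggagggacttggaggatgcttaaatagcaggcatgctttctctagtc
C1qb: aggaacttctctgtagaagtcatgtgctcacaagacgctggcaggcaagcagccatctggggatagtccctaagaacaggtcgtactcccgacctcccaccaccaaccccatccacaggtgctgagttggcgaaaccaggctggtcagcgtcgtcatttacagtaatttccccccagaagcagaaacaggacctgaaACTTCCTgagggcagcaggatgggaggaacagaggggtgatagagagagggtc
C1qc: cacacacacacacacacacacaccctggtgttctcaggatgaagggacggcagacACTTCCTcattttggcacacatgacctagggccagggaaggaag

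AGGAAGT was searched for on both strands, and the motif was chosen after the sequences had been read. Of the 10 genes, 4 had an entry in the promoter table, and the window held the motif once in Lyz2, C1qb and C1qc and in none of the 3 annotated starts of Apoe. It stood in 7.69% of all 32851 upstream windows of the same length. In Lyz2 and in Lyz1 the motif ended 93 bases before the RefSeq start site, and the full upstream windows were identical at 152 of 250 positions (60.8%) without gaps. A match is a description of letters and not a shown binding site.

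On build mm10, C1qb, C1qc and C1qa lay side by side on the minus strand within 18675 bases, at chr4:136880129-136898803. Lyz2 (chr10:117277331-117282321) and Lyz1 lay 5475 bases apart on the minus strand. Of the 50-base windows of the Lyz2 transcript, 15.4% also stood in the Lyz1 transcript, and 1.97% of its 100-base windows did. The read length is not given in the sources used here, and how the authors' counting treated shared reads is not known. The other genes lay at chr7:19696109-19699188 (Apoe, minus strand), chr7:30413760-30417585 (Tyrobp, plus), chr10:24915221-24927484 (Arg1, minus), chr17:57358691-57483527 (Adgre1, plus), chr18:36725067-36726798 (Cd14, minus) and chr18:61100598-61132149 (Csf1r, plus). All values are per gene symbol.

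The sorted libraries had 8860 to 10362 genes at 1 FPKM or more, the antibody libraries 5752 to 8640, and the bulk pair 7908 (KO) and 8042 (WT) at 1 RPKM or more. FPKM and RPKM are counts of fragments or reads scaled to the length of the transcript and to the mapped total of the library. Read totals behind the FPKM values are unknown. All 12 T cell genes of a marker list were at 5 FPKM or more in every sorted library, and Cd8a had between 48.5 FPKM (B7S1R_SP, KO) and 512 FPKM (DN, wild type number 1). Vtcn1, the gene named as knocked out, went against its labels. It had 9.46 RPKM in the bulk library labelled KO, against 0.0687 RPKM in bulk WT. In the sorted libraries it had 0.16 FPKM (B7S1R_SP), 2.5 FPKM (TIM-3_SP) and 1.02 FPKM (DN) in those labelled KO, against 0 in all 3 wild-type libraries numbered 2, and it was not listed elsewhere. The labels and the files do not say which part of the gene was deleted.

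The macrophage genes read highest in B7S1R_SP. Their sum over the 7 genes listed in all sorted libraries was 3711 FPKM (KO), 207 FPKM (wild type number 1) and 320.4 FPKM (wild type number 2) in B7S1R_SP. In TIM-3_SP it was 8.77 FPKM (KO), 20.8 FPKM (wild type number 1) and 29.3 FPKM (wild type number 2). In DN it was 13.6 FPKM (KO), 35.7 FPKM (wild type number 1) and 24.98 FPKM (wild type number 2). The 3 B7S1R_SP libraries lay above all 6 others, and the B7S1R_SP library labelled KO was the highest of its population. Levels of wild type number 1 come from a table normalised separately, here and in the paragraphs below. Over all 10 genes that library held 4605 FPKM, 0.459% of its summed FPKM, and Lyz2 made up 53.0% of this. In bulk samples such as these, fewer cells of a type and less RNA per cell cannot be told apart.

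**Figure D1:**
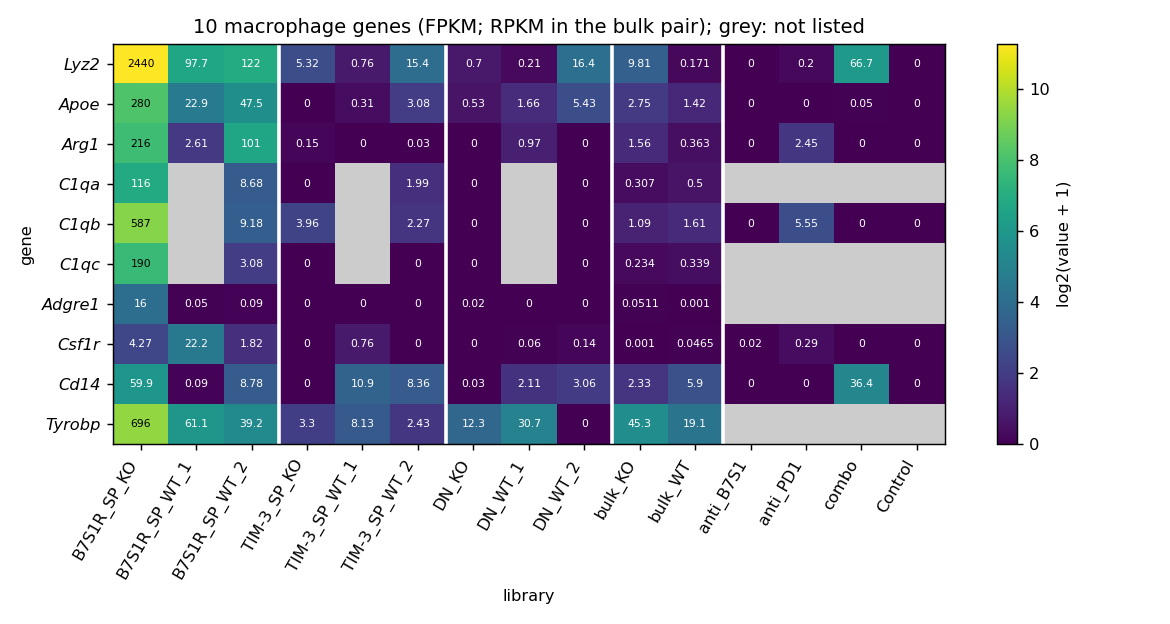
Level of each of the 10 genes (rows) in each of the 15 libraries (columns), coloured on a log2(value + 1) scale with the value printed in FPKM, or RPKM for the bulk pair. Grey cells are genes not listed. The B7S1R_SP library labelled KO holds the highest value of 9 genes, and Csf1r is highest in B7S1R_SP wild type number 1 (22.2 FPKM).

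Lyz2 had 2439.6 FPKM (KO), 97.7 FPKM (wild type number 1) and 122.1 FPKM (wild type number 2) in B7S1R_SP. In TIM-3_SP it had 5.32 FPKM (KO), 0.76 FPKM (wild type number 1) and 15.4 FPKM (wild type number 2). In DN it had 0.7 FPKM (KO), 0.21 FPKM (wild type number 1) and 16.4 FPKM (wild type number 2). Every B7S1R_SP library lay above every other sorted library, and the wild-type libraries numbered 2 were the highest of TIM-3_SP and DN. Over the 3 library pairs the log2 ratio of FPKM + 1 averaged 5.77 ± 2.84 (SD) for B7S1R_SP over TIM-3_SP and 6.55 ± 3.83 over DN. A pseudocount of 1 makes such ratios understate the change of low genes. Lyz1, the neighbouring copy, stood at 220 FPKM (KO), 3.52 FPKM (wild type number 1) and 11.0 FPKM (wild type number 2) in B7S1R_SP, and Lyz2 was 11.1 (KO), 27.7 (wild type number 1) and 11.1 times (wild type number 2) as high.

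Apoe had 279.8 FPKM (KO), 22.9 FPKM (wild type number 1) and 47.5 FPKM (wild type number 2) in B7S1R_SP. In TIM-3_SP it had 0 (KO), 0.31 FPKM (wild type number 1) and 3.08 FPKM (wild type number 2), and in DN 0.53 FPKM (KO), 1.66 FPKM (wild type number 1) and 5.43 FPKM (wild type number 2). Every B7S1R_SP library lay above all those of TIM-3_SP and DN, which overlapped each other. The mean log2 ratio of B7S1R_SP was 5.30 ± 2.48 over TIM-3_SP and 4.53 ± 2.59 over DN. Arg1 had 215.6 FPKM (KO), 2.61 FPKM (wild type number 1) and 101 FPKM (wild type number 2) in B7S1R_SP. In TIM-3_SP it had 0.15 FPKM (KO), 0 (wild type number 1) and 0.03 FPKM (wild type number 2). In DN it was listed at 0 in KO and wild type number 2 and had 0.97 FPKM in wild type number 1. In B7S1R_SP, Arg1 was 2.14 times as high in the library labelled KO as in wild type number 2, and it was lowest in wild type number 1, where Lyz2 was 37.4 times as high as Arg1, against 1.21 times in wild type number 2.

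The C1q chains, not listed in the libraries numbered 1, were highest in the B7S1R_SP library labelled KO. C1qb had 587 FPKM (KO) and 9.18 FPKM (wild type number 2) in B7S1R_SP, and 3.96 FPKM (KO) and 2.27 FPKM (wild type number 2) in TIM-3_SP. C1qa had 116 FPKM (KO) and 8.68 FPKM (wild type number 2) in B7S1R_SP, and 0 (KO) and 1.99 FPKM (wild type number 2) in TIM-3_SP. C1qc had 190.1 FPKM (KO) and 3.08 FPKM (wild type number 2) in B7S1R_SP and was listed at 0 in TIM-3_SP. In DN all 3 chains were listed at 0. C1qb was 5.06 times C1qa in the B7S1R_SP library labelled KO, against 1.06 times in wild type number 2, while its ratio to C1qc was 3.09 and 2.98.

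The receptors differed among themselves. Csf1r was the one gene whose highest value fell in B7S1R_SP wild type number 1, with 22.2 FPKM, against 4.27 FPKM (KO) and 1.82 FPKM (wild type number 2) in the same population. In TIM-3_SP and DN it ranged between 0 and 0.76 FPKM. Adgre1 had 16.0 FPKM in the B7S1R_SP library labelled KO, and at most 0.09 FPKM in the other 8 sorted libraries, so F4/80 RNA passed 1 FPKM or RPKM in 1 of the 11 libraries that list it. Cd14 did not set B7S1R_SP apart. It had 59.9 FPKM (KO), 0.09 FPKM (wild type number 1) and 8.78 FPKM (wild type number 2) in B7S1R_SP, and 0 (KO), 10.9 FPKM (wild type number 1) and 8.36 FPKM (wild type number 2) in TIM-3_SP. In DN it had 0.03 FPKM (KO), 2.11 FPKM (wild type number 1) and 3.06 FPKM (wild type number 2). The populations overlapped, and in wild type number 1 Cd14 was lower in B7S1R_SP than in TIM-3_SP by 3.44 on the log2 scale.

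Tyrobp, the adaptor, had 696 FPKM (KO), 61.1 FPKM (wild type number 1) and 39.2 FPKM (wild type number 2) in B7S1R_SP. In TIM-3_SP it had 3.3 FPKM (KO), 8.13 FPKM (wild type number 1) and 2.43 FPKM (wild type number 2). In DN it had 12.3 FPKM (KO), 30.7 FPKM (wild type number 1) and 0 (wild type number 2). The B7S1R_SP libraries lay above the rest, with DN wild type number 1 the nearest. Klre1, the highest natural killer receptor gene of its marker list, had 8.91 FPKM (KO), 209 FPKM (wild type number 1) and 101 FPKM (wild type number 2) in B7S1R_SP, against 134 to 663 FPKM in TIM-3_SP and DN, and Ncr1 was not listed.

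**Figure D2:**
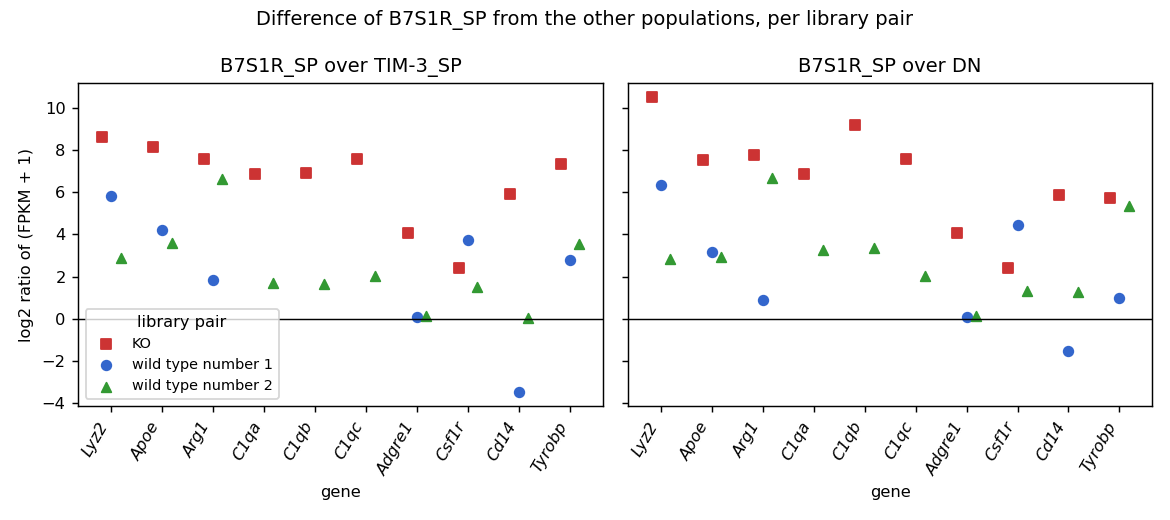
Log2 ratio of (FPKM + 1) of B7S1R_SP over TIM-3_SP (left) and over DN (right) for each gene, 1 point per library pair, with C1q genes in 2 pairs. Points above the line at 0 are higher in B7S1R_SP. Cd14 in wild type number 1 lies below 0 in both panels, and the pair labelled KO gives the highest point for 9 genes.

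A gene was counted as higher in B7S1R_SP where it had 5 FPKM or more there and at least 2-fold the value of both TIM-3_SP and DN. In the pair labelled KO this held for 9 of 10 genes, all but Csf1r, beside 2.18% of all 17605 genes listed. In wild type number 2 it held for 6 of 10 genes (Lyz2, Apoe, Arg1, C1qa, C1qb and Tyrobp), beside 4.74% of all genes. In wild type number 1 it held for 3 of 7 (Lyz2, Apoe and Csf1r), beside 8.08% of 15627 genes. Lyz2 and Apoe met the rule in all 3 pairs, as did 24 of 14020 genes listed in both tables (0.171%). The other 22 included the macrophage calcium-binding gene Aif1, the chemokine gene Ccl6, the complement genes C5ar1 and Cfp, and the class II gene H2-Aa, named after their values were seen. They also included Apoh, Mgp, Ipo5, Scd3 and Lrrc2, which are on none of the marker lists and were likewise named after their values were seen. Since these contrasts chose the genes, nothing is read from the counts. The median log2 ratio over the genes listed in a pair, averaged over the 3 pairs, was 3.91 over TIM-3_SP and 3.68 over DN, against medians of 0 to 0.15 for all genes in the separate pairs. Without the pair labelled KO these averages were 2.31 over TIM-3_SP and 1.92 over DN.

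Other marker lists were read in the same libraries. Of the other macrophage and monocyte genes, 38 of 45 listed were at 5 FPKM or more in the B7S1R_SP library labelled KO, beside 32.4% of all genes, 19 of 39 in wild type number 1, beside 48.5%, and 21 of 45 in wild type number 2, beside 32.7%. In the 6 TIM-3_SP and DN libraries 9 to 11 were, beside 28.9% to 44.9% of all genes. The sum of the list did not set B7S1R_SP apart in wild type. Over the 38 genes listed in all sorted libraries it was 5920 FPKM (KO), 2461 FPKM (wild type number 1) and 1314 FPKM (wild type number 2) in B7S1R_SP, 1276 to 1477 FPKM in TIM-3_SP, and 1059 FPKM (KO), 2484 FPKM (wild type number 1) and 2567 FPKM (wild type number 2) in DN. Its highest gene, Cst3, which encodes the protease inhibitor cystatin C, had 599 FPKM (KO), 1461 FPKM (wild type number 1) and 418 FPKM (wild type number 2) in B7S1R_SP, against 335 to 1929 FPKM in TIM-3_SP and DN. Fcer1g, the Fc receptor gamma chain, had 1456 FPKM (KO), 78.9 FPKM (wild type number 1) and 285 FPKM (wild type number 2) in B7S1R_SP, against 21.0 to 243 FPKM in TIM-3_SP and DN. Ctss, a lysosomal protease gene of antigen-presenting cells, had 674 FPKM (KO), 102 FPKM (wild type number 1) and 105 FPKM (wild type number 2) in B7S1R_SP, against 46.9 to 306 FPKM in TIM-3_SP and DN. For Cst3, Fcer1g and Ctss the ranges overlapped, while for Ccl6 and Pf4 they did not. Pf4, a chemokine gene of platelets and macrophages that the libraries numbered 1 do not list, had 312 FPKM (KO) and 387 FPKM (wild type number 2) in B7S1R_SP and was listed at 0 in TIM-3_SP and DN. Ccl6 had 1158 FPKM (KO), 29.2 FPKM (wild type number 1) and 107 FPKM (wild type number 2) in B7S1R_SP and at most 4.49 FPKM in TIM-3_SP and DN. Ctsd, a lysosomal protease gene of many cell types, had 40.1 FPKM (KO), 349.7 FPKM (wild type number 1) and 38.8 FPKM (wild type number 2) in B7S1R_SP, against 25.3 to 797 FPKM in TIM-3_SP and DN. Spi1 had 14.7 FPKM (KO), 5.08 FPKM (wild type number 1) and 3.85 FPKM (wild type number 2) in B7S1R_SP and at most 0.18 FPKM in TIM-3_SP and DN, and it was named after its values were seen.

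Partners of the 10 genes in their pathways were mixed. Ly96, which encodes the lipopolysaccharide receptor subunit MD-2, had 98.2 FPKM (KO), 22.2 FPKM (wild type number 1) and 97.3 FPKM (wild type number 2) in B7S1R_SP, against 9.16 to 53.4 FPKM in TIM-3_SP and DN. Hcst, the adaptor DAP10 of T and natural killer cells, had 481 FPKM (KO), 446 FPKM (wild type number 1) and 264 FPKM (wild type number 2) in B7S1R_SP, against 596 to 1703 FPKM in TIM-3_SP and DN. Ly96 overlapped between B7S1R_SP and the others, and so did the remaining partners with high means. Odc1, an enzyme gene downstream of arginase, ranged between 52.5 and 126 FPKM in B7S1R_SP and between 50.8 and 148 FPKM in TIM-3_SP and DN. Irf8, a transcription factor gene of myeloid and lymphoid cells, ranged between 3.24 and 77.0 FPKM in B7S1R_SP and between 6.54 and 195 FPKM in the others. Adgre5 ranged between 18.03 and 64.3 FPKM in B7S1R_SP and between 7.75 and 57.8 FPKM in the others, and the lipid transporter gene Abcg1 between 19.5 and 59.1 FPKM in B7S1R_SP and between 10.51 and 53.3 FPKM in the others. Against DN alone, by the same rule of 2-fold and 5 FPKM, 9 of 44 partners listed were higher in B7S1R_SP in the pair labelled KO, beside 2.93% of all genes, and none was lower, beside 2.05%. Among these 9 were Lyz1, Spi1 and Trem2, which the list of other macrophage and monocyte genes also holds. Trem2 was named after its values were seen. In wild type number 1, 7 of 36 were higher, beside 16.2%, and 2 lower, beside 7.51%. In wild type number 2, 4 of 44 were higher, beside 6.97%, and 4 lower, beside 13.7%. Against TIM-3_SP, 10 of 44 were higher and 2 lower in the pair labelled KO, beside 1470 and 880 of 17605 genes. In wild type number 1, 5 of 36 were higher and 5 lower against TIM-3_SP, beside 2476 and 1760 of 15627 genes. In wild type number 2, 6 of 44 were higher and 4 lower against TIM-3_SP, beside 1763 and 1287 of 17605 genes.

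Markers of other cell types and of T cells moved too, and their part in the result was not tested. The summed T cell list was 2453 FPKM (KO), 5358 FPKM (wild type number 1) and 2880 FPKM (wild type number 2) in B7S1R_SP. It was 7009 to 9350 FPKM in TIM-3_SP and 3804 to 8487 FPKM in DN. Its lowest value lay in the B7S1R_SP library labelled KO, where the macrophage genes summed highest. Outside B7S1R_SP it was lowest in the DN library labelled KO, where the 7 macrophage genes listed in all sorted libraries summed to 13.6 FPKM. Cd3g, the highest gene of the T cell list, ranged between 974 and 1278 FPKM in B7S1R_SP and between 1392 and 4464 FPKM in TIM-3_SP and DN. The dendritic and class II list summed to 2655 FPKM (KO), 2736 FPKM (wild type number 1) and 227 FPKM (wild type number 2) in B7S1R_SP, 101 to 383 FPKM in TIM-3_SP and 161 to 1484 FPKM in DN. Part of this sum was Ccr7, a chemokine receptor gene that T cells also express, with 32.98 FPKM (KO), 569 FPKM (wild type number 1) and 55.1 FPKM (wild type number 2) in B7S1R_SP, 24.8 to 295 FPKM in TIM-3_SP, and 68.0 FPKM (KO), 988 FPKM (wild type number 1) and 496 FPKM (wild type number 2) in DN. Cd74, the class II invariant chain, had 1019 FPKM (KO), 943 FPKM (wild type number 1) and 125 FPKM (wild type number 2) in B7S1R_SP, against 45.7 to 356 FPKM in TIM-3_SP and DN. H2-Aa had 871 FPKM (KO), 325 FPKM (wild type number 1) and 17.6 FPKM (wild type number 2) in B7S1R_SP, against 0 to 43.8 FPKM in TIM-3_SP and DN. The first 2 of these libraries were close in this dendritic and class II sum, while their macrophage sums were 3711 FPKM (KO) and 207 FPKM (wild type number 1). They come from tables normalised separately, so their levels are set side by side only as a description. The neutrophil list was not uniformly low. Its highest gene, the chemokine receptor gene Cxcr2, had 224 FPKM (KO), 90.0 FPKM (wild type number 1) and 156 FPKM (wild type number 2) in B7S1R_SP, against 14.4 to 135 FPKM in TIM-3_SP and DN, and among the sorted libraries it was highest in the same one as 9 of the 10 macrophage genes. Csf3r stayed at or below 18.1 FPKM and Ly6g at or below 6.78 FPKM in the sorted libraries, where S100a9 was not listed. Both were highest in TIM-3_SP wild type number 1. S100a8, named after its values were seen, had 4.76 FPKM (KO) and 0 (wild type number 2) in B7S1R_SP. It had at most 1.94 FPKM in TIM-3_SP and DN, and the libraries numbered 1 do not list it. Of the stromal and endothelial list, Pecam1 had 3.45 FPKM (KO), 19.4 FPKM (wild type number 1) and 3.41 FPKM (wild type number 2) in B7S1R_SP, against 2.19 to 21.7 FPKM in TIM-3_SP and DN. The other high genes of that list, Cdh5 and Sparc, stayed at or below 1.46 FPKM, and its collagen genes at or below 0.61 FPKM. The B cell list summed to at most 39.1 FPKM (DN, wild type number 1), the CD4 and regulatory T cell list to at most 28.1 FPKM (B7S1R_SP, wild type number 1) and the mast cell and basophil list to at most 53.1 FPKM (DN, KO). The globin genes of red cells took 9.72% of the summed FPKM in TIM-3_SP wild type number 2, 7.85% in DN wild type number 2 and 1.14% in B7S1R_SP wild type number 2, against at most 0.0136% elsewhere in the sorted libraries.

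**Figure D3:**
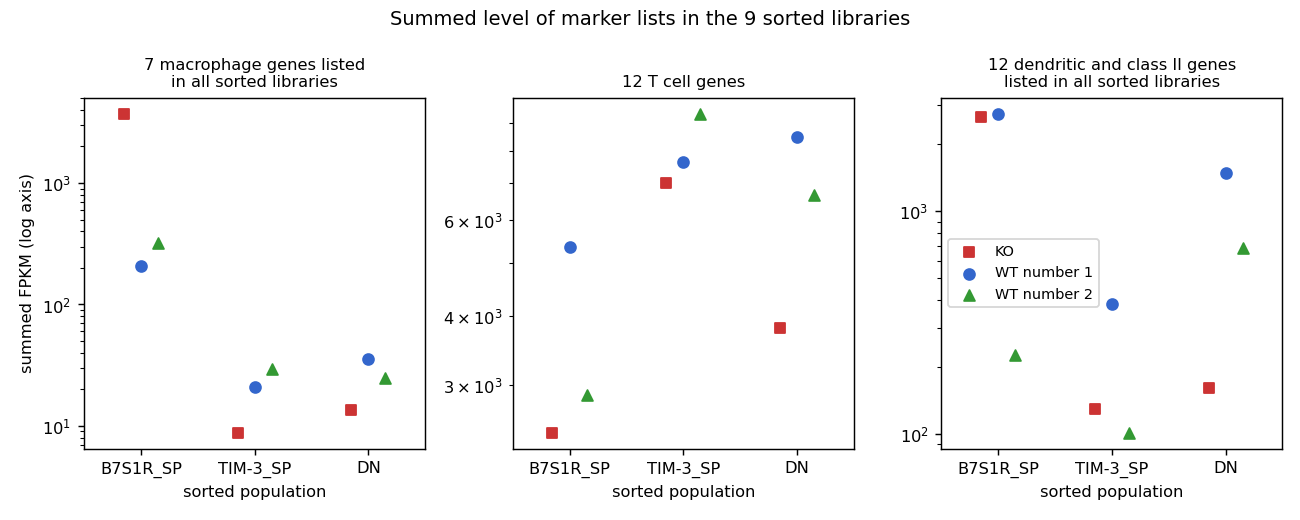
Summed FPKM on log axes in the 9 sorted libraries for the 7 macrophage genes listed in all of them (left), 12 T cell genes (middle) and 12 dendritic and class II genes (right). Squares are libraries labelled KO, circles wild type number 1 and triangles wild type number 2. The macrophage sum is highest and the T cell sum lowest in the B7S1R_SP library labelled KO.

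The genes followed each other unevenly. Over the 9 sorted libraries, with log2(FPKM + 1) centred within each table, each gene was correlated with the mean of the other 6 that all these libraries list. Pearson's r was 0.95 for Apoe, 0.91 for Arg1 and Lyz2, 0.84 for Tyrobp, 0.81 for Adgre1, 0.72 for Csf1r and 0.58 for Cd14. The points share libraries of 3 populations, and the library labelled KO in B7S1R_SP lies far from the rest, so these values are descriptions. Among 4445 genes with a mean of 10 FPKM or more, the patterns most like the mean of the 7 genes were those of Lyz1 (r = 0.99), Ccl7 (0.98), Ube2k (0.98), Aif1 (0.97), Wfdc17 (0.96), Ccl6 (0.96), Clec4n (0.90), Clec4a3 (0.90), Fcgr3 (0.90) and Tmem176a (0.88), and the first 6, or 0.135% of the genes, reached 0.9. Ube2k, a ubiquitin-conjugating enzyme gene, varied only between 9.43 and 17.3 FPKM.

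The libraries labelled KO were set against the wild-type libraries numbered 2, which list the same genes. In B7S1R_SP, 9 of 10 genes were at least 2-fold higher in the library labelled KO with 5 FPKM or more, beside 4.56% of all genes, and none was lower, beside 5.79%. The ratios were 178 for Adgre1, 63.9 for C1qb, 61.7 for C1qc, 20.0 for Lyz2, 17.8 for Tyrobp, 13.4 for C1qa, 6.82 for Cd14, 5.89 for Apoe and 2.14 for Arg1. Csf1r was 2.35 times as high at 4.27 FPKM. In TIM-3_SP none was higher, beside 2.78%, and Lyz2 and Cd14 were lower, beside 5.42%. In DN Tyrobp was higher, beside 5.82%, and Lyz2 and Apoe were lower, beside 16.0%. Each of these ratios rests on 1 library per genotype and has no replicate check.

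**Figure D4:**
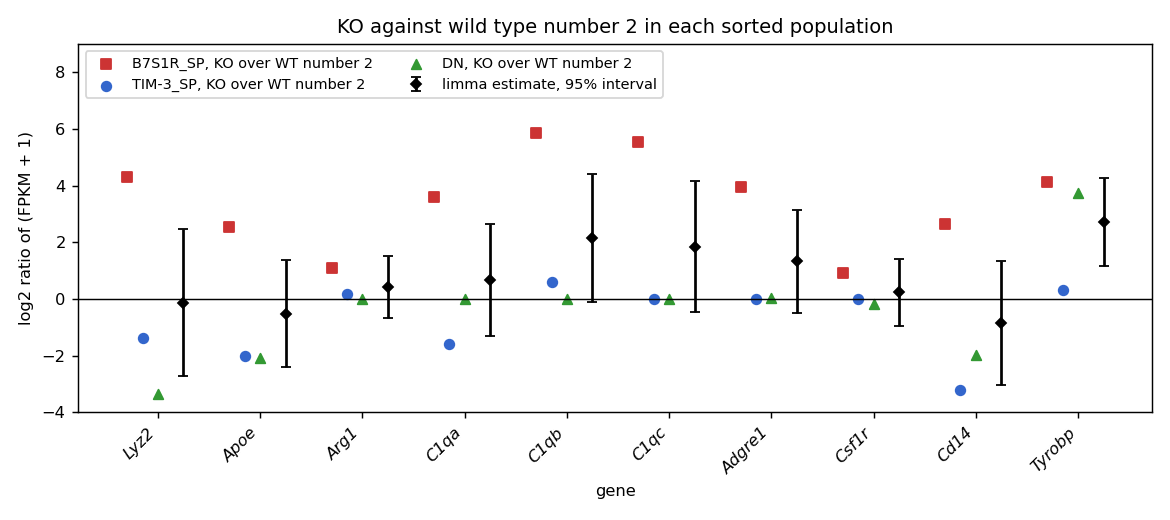
Log2 ratio of (FPKM + 1) of the library labelled KO over wild type number 2 for each gene in B7S1R_SP (squares), TIM-3_SP (circles) and DN (triangles). Diamonds with bars are the limma estimates over the 3 populations with their 95% intervals. Every square lies above 0, and the circles and triangles of Lyz2, Apoe and Cd14 lie below it.

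Over the 3 populations together no gene of the 10 passed the threshold. limma, with the population as covariate, called 10 of 10097 genes at an adjusted p under 0.05 (0.0990%), all lower in the libraries labelled KO, and 1536 genes had an unadjusted p under 0.05. Of the 10, Tyrobp came nearest, at 2.73 ± 0.68 (SE) on the log2 scale with a limma adjusted p of 0.172. It was higher in 3 of 3 populations, but in TIM-3_SP only at 3.3 FPKM (KO) against 2.43 FPKM (wild type number 2), both under 5 FPKM. C1qb had 2.15 ± 0.99 (limma adjusted p = 0.349), higher in 2 of 3 populations and listed at 0 in both DN libraries. Lyz2 had -0.14 ± 1.14 (limma adjusted p = 0.965), with B7S1R_SP higher and both other populations lower in the libraries labelled KO. The estimates of the others lay between -0.86 (Cd14) and 1.85 (C1qc). Over TIM-3_SP and DN alone 5 of the genes (Lyz2, Apoe, C1qb, Cd14 and Tyrobp) averaged 1 FPKM or more, so Arg1, C1qa, C1qc, Adgre1 and Csf1r entered this fit only through B7S1R_SP, the population for which the genes were picked, and nothing is read from their estimates. With 1 library left out, its population adds nothing to the estimate, so only estimates are given for such fits. Tyrobp then ranged from 2.03 to 3.93 and C1qb from 0.30 to 3.23. Without TIM-3_SP wild type number 2, Tyrobp had 3.93 and C1qb 2.93, which rest on the B7S1R_SP and DN pairs. For C1qb the log2 ratio was 5.85 in B7S1R_SP, the population for which the genes were picked, and 0 in DN. The erythroid list, high in the wild-type libraries numbered 2, gave 4 of the 10 calls, and all 12 T cell genes had estimates below 0 with none called.

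TIM-3_SP and DN, the populations without the B7S1 receptor, were tested against each other in the 6 wild-type libraries. limma called 0 of 10411 genes, with 316 genes at an unadjusted p under 0.05. Of the 10 genes, 6 entered the fit, Arg1 and Csf1r only through the B7S1R_SP libraries that share it. Those 2 genes averaged 0.25 and 0.24 FPKM in TIM-3_SP and DN, and the test says nothing of them. Cd14 had 1.57 ± 1.21 (SE), with a 95% interval of -1.12 to 4.26, and was higher in TIM-3_SP in both pairs. Apoe had -0.84 ± 1.07 and was lower in TIM-3_SP in both pairs. Lyz2 had 0.23 ± 1.36, with an interval of -2.80 to 3.26. The limma adjusted p was 1 for Lyz2, Apoe, Cd14 and Tyrobp. The numbers were taken to pair these libraries, though the fit above had no block for them. Each number is also 1 table, so levels of numbers 1 and 2 come from tables normalised separately. A pairing and a difference between the tables cannot be told apart. With the number as a replicate block limma called 26 genes and none of these 4, whose adjusted p ranged between 0.916 and 1.

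In the bulk pair Tyrobp was the highest of the 10 genes, and only Lyz2 and Cd14 besides it passed 5 RPKM in either library. Tyrobp had 45.3 RPKM in KO, against 19.1 RPKM in WT, and Lyz2 had 9.81 RPKM in KO, against 0.171 RPKM in WT. These were the genes at least 2-fold higher and at 5 RPKM or more in the library labelled KO, beside 4.31% of all genes. Cd14 was lower in KO at 2.33 RPKM, against 5.90 RPKM in WT, beside 4.98% of all genes. Apoe had 2.75 RPKM in KO and 1.42 RPKM in WT, and Arg1 1.56 RPKM in KO and 0.363 RPKM in WT. C1qa had 0.307 RPKM in KO and 0.500 RPKM in WT. C1qb had 1.09 RPKM in KO and 1.61 RPKM in WT, and C1qc had 0.234 RPKM in KO and 0.339 RPKM in WT, so each chain read lower in KO. Adgre1 and Csf1r stayed at or below 0.0511 RPKM. The steps between low RPKM values fit whole reads, and the smallest whole numbers of reads that fit were 125 in KO against 2 in WT for Lyz2, 80 against 31 for Tyrobp, 14 against 19 for C1qb and 3 against 7 for Cd14. Only the ratio of the 2 libraries was fitted, so these numbers do not give the depth behind a gene. The fit was checked with whole numbers of at most 12. Larger ones, such as 80 against 31, can fit by accident, so true counts may be these, a common multiple of them or others. The median log2 ratio over the 10 genes was 0.0032, against -0.063 over all genes, and there was no replicate.

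In the antibody libraries the genes were at or near 0 in anti_B7S1 and Control, and each of combo and anti_PD1 held 2 of them above 1 FPKM. Combo had 66.7 FPKM of Lyz2 and 36.4 FPKM of Cd14, and both were listed at 0 in Control. These 2 of the 6 genes listed were counted as higher in combo, beside 19.9% of all genes, and none as lower, beside 13.9%. Arg1, C1qb and Csf1r were listed at 0 in combo and Apoe had 0.05 FPKM, so Lyz2 and Cd14 stood there without the others. Lyz1 had 5.82 FPKM in combo, which put Lyz2 at 11.5 times Lyz1, and Tlr2, a receptor for bacterial lipoproteins named after its values were seen, had 27.9 FPKM in combo and 0 in Control. In anti_PD1 C1qb had 5.55 FPKM and Arg1 2.45 FPKM, each listed at 0 in Control. C1qb was the one gene counted as higher in anti_PD1, beside 23.5% of all genes, and none was lower, beside 13.0%. In anti_B7S1 the highest value was 0.02 FPKM, of Csf1r, and none of the 6 genes was counted as higher, beside 18.5%, or as lower, beside 14.2%. In Control all 6 were listed at 0. The antibody libraries had fewer genes at 1 FPKM or more than the sorted ones, no replicates and unknown depth, so a gene listed at 0 in them is not shown to be absent.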

How the data were processed

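The RNA of 15 libraries was sequenced on Illumina HiSeq machines after cDNA synthesis with the SMARTer ultra low input kit, per the labels' protocols. The tools named are HISAT2, RSEM and Bowtie2, with no version, and the build is mm10, per the submitters' processing notes. The authors deposited RPKM values for the bulk pair, per the file headers, and the lowest value there is 0.001. For the other libraries they deposited FPKM values, per the file headers, to 2 decimals. No raw counts were used, so no count model was run.

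Files that list the same genes were treated as 1 table, which gave 4 tables, and ratios were taken within a table. Duplicated symbols were dropped, and the older symbol Emr1 was read as Adgre1. limma 3.58.1 in R 4.3.3 (lmFit, eBayes with trend) was run on log2(FPKM + 1) for genes that averaged 1 FPKM or more. P-values were adjusted by Benjamini-Hochberg over all genes of the fit and called under 0.05. The fits were also run on simulated data with equal, independent noise in every library and no difference between tables. Such a run does not show how the fits perform on these libraries. Unreplicated ratios count a gene at 2-fold or more and at 5 or more in the higher library. Whole reads were sought in the bulk pair: with 1.09 times as many reads in KO as in WT, the KO to WT ratio of 88.7% of 3131 low genes matched 2 whole read numbers of at most 12 to within 0.02%, and 0.224% did so once the ratio was shifted. Replicate numbers come from the titles. The gene-wise difference of numbers 2 and 1 had correlations of 0.401 (B7S1R_SP and TIM-3_SP), 0.269 (B7S1R_SP and DN) and 0.193 (TIM-3_SP and DN) across 10411 genes. Each is above 0.1, and the numbers were taken to pair the libraries. Each number is also 1 table, so these correlations cannot tell a pairing from a difference between the tables.

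The genes, the marker lists and the tests were chosen with earlier results of these data known. Beside the 10 genes, the text names genes from among the highest means of each list (up to rank 6 for other macrophage genes and pathway partners, up to rank 3 otherwise), the defining markers Cd8a, Ncr1, S100a9 and collagen genes, which lie outside that rule, Vtcn1, the 10 genes with the most similar pattern, and genes said to be named after their values were seen. Gene positions are from GENCODE M21 and sequences from RefSeq.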

Additional observations from a re-analysis of the deposited data

Results flagged for a closer look

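Lyz2 in the library labelled KO differed from wild type number 2 in opposite directions between populations. It was higher by 4.31 on the log2(FPKM + 1) scale in B7S1R_SP (2439.6 FPKM in KO, 122.1 FPKM in wild type number 2). It fell by 1.38 in TIM-3_SP (5.32 FPKM in KO, 15.4 FPKM in wild type number 2) and by 3.35 in DN (0.7 FPKM in KO, 16.4 FPKM in wild type number 2). Each value is 1 library, and the difference between populations was not tested. The globin genes were higher in all 3 wild-type libraries numbered 2 than in those labelled KO, and their part in this was not tested.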

How the results depend on the processing

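Between TIM-3_SP and DN, limma called 0 genes, 26 with the replicate block, 3 with median-of-ratios scaling, and 0 to 1 when 1 library was left out, with 1 call without DN_WT replicate 1. Between KO and wild type it called 10 genes, 0 without a filter on low values (1420 at an unadjusted p under 0.05), 0 over all 9 sorted libraries with no replicate block (1638 unadjusted), 1 over the 9 with the replicate block, and 0 to 210 when 1 library was left out. The replicate block changed no call of the 10 genes. Some estimates changed sign. Tyrobp between TIM-3_SP and DN (-0.0092) became 1.38 with a pseudocount of 0.1, 0.11 with median-of-ratios scaling and 0.16 with equal sums without globin genes, a scaling chosen after seeing the data. Between KO and wild type, C1qa became -0.22 and Csf1r -0.026 with a pseudocount of 0.1, Lyz2 became 0.016 with median-of-ratios scaling, and over 9 libraries without the block Lyz2 became 1.09, Apoe 0.13 and Csf1r -0.39. With 1 library left out, the TIM-3_SP to DN estimates ranged from -1.69 to 2.15 (Lyz2), -0.96 to 0.021 (Arg1), -2.50 to 2.48 (Tyrobp) and -0.14 to 0.68 (Csf1r), and the KO to wild type estimates from -2.36 to 1.47 (Lyz2), -2.05 to 0.25 (Apoe), -0.79 to 1.80 (C1qa) and -2.60 to 0.33 (Cd14). Arg1 and Csf1r between TIM-3_SP and DN, and C1qa and Csf1r between KO and wild type, entered only through B7S1R_SP. Nothing is read from their values here. In anti_PD1 the median of the 6 genes was 0.32, and 1.77 with a pseudocount of 0.1. The 1 gene counted higher there became 0 with median-of-ratios scaling and 2 with a minimum of 1 FPKM. With that minimum 1 value was lower in B7S1R_SP than in DN, against 0. The cause was not tested. Where a gene has 0 FPKM and depth is unknown, a low level cannot be told from none.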
